A study of Rattus norvegicus with 8 samples.

Results

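Cholesterol synthesis and the targets of SREBP2 were followed through 28 genes, of 35828 genes or names on the arrays, in livers of rats under chemical hepatocarcinogenesis. A gene belonged to the set when a non-control spot of the array carried its name, and the members cover the pathway in order: 2 enzymes that make HMG-CoA, 6 from mevalonate to the isoprenoids, 3 that make squalene and close the ring, 8 from lanosterol to cholesterol, 4 of SREBP2 and its sterol sensor, and 5 of sterol transport and storage. All 28 were well above background on all 8 arrays, so no member was lost to the filter on dim probes. They were read by 44 probes on 100 spots per array, and where a gene had several probes the brightest stood for it.

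The STL group consisted of 4 male Wistar rats gavaged every day with 1.65 g/kg body weight of STL, structured lipids that carry butyrate, a short-chain fatty acid. The control group consisted of 4 male Wistar rats given 3.0 g/kg of maltodextrin, a starch-derived carbohydrate, in a dose of equal energy. In week 2 of treatment both groups entered the resistant hepatocyte model, in which a carcinogen creates altered hepatocytes that then outgrow their inhibited neighbours, and all livers were taken in week 8, so no liver in the comparison was free of the carcinogen protocol. The labels call the rats age-matched and give no age. The comparison asks which of these transcripts differed in such livers when the lipid took the place of the carbohydrate, and because the 2 gavages differ in lipid and in carbohydrate, the part of either cannot be told apart.

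Cholesterol is built in the cytosol and endoplasmic reticulum from acetyl-CoA, through mevalonate, isoprenoid diphosphates, squalene and lanosterol, and hepatocytes are among the cells that make most of it. SREBP2, a membrane-bound transcription factor encoded by Srebf2, switches the enzyme genes on together when sterols run low. SCAP carries it to the Golgi for cleavage, and the INSIG proteins hold SCAP back in the endoplasmic reticulum when sterols are plentiful.

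Values are normalised log2 signals: log2 of the processed spot signal minus the 75th percentile of its array, so that 0 lies at that percentile and 1 unit is a doubling. Liver numbers follow the scanner files. The arrays of control 1 and control 2 differed over repeated spots by 1.209 times the noise between spots of 1 array, against 2.413 to 7.651 times in the other 27 pairs, and were averaged and counted as 1 sample. The comparison is therefore of 4 STL samples with 3 control samples, and differences are STL minus control. Over all 21675 genes tested, 1 passed the threshold of an adjusted p under 0.05 (limma, Benjamini-Hochberg), which was Cish, higher in STL at 2.19 log2 units, and 4113 had an unadjusted p under 0.05. The labels count rats per group, and p-values measure the spread between these few samples. In pieces of whole liver, fewer cells of a type and less RNA per cell cannot be told apart.

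Most enzymes from mevalonate to the early sterols had lower mean signals in STL livers. Over the 28 members the widest differences were those of Insig2, of the sterol sensor, and of the enzymes Fdps, Sqle, Msmo1 and Cyp51. Their STL levels were between 0.421 and 0.521 times those of control livers. None of these differences passed the threshold over all genes. Of the 28 members 0 passed it (limma, Benjamini-Hochberg), as did 0.00461% of all genes tested, and the smallest adjusted p among members was 0.159. At an unadjusted p under 0.05, 8 members were lower in STL, namely Pmvk, Fdps, Sqle, Lss, Cyp51, Msmo1, Dhcr7 and Insig2, and 7.41% of all genes tested were. Only Npc1 was higher at that level, against 11.6% of all genes. By sign alone 18 of 28 were lower in STL, against 41.9% of all genes, and the median difference of the members was -0.22 while that of all genes was 0.065. A difference of at least 2-fold lower was measured for 3 members, Fdps, Sqle and Insig2, and for 2.35% of genes tested.

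The members separated the control livers from each other more than they separated the groups. Control 3 was the highest of the 7 samples for 19 of 28 members, against 10.3% of all genes tested. The averaged control 1 and 2 lay inside the range of the 4 STL livers for 21 of 28, against 59.2% of all genes. Both control 3 and control 4 lay above every STL liver for 12 of 28, against 12.6%. After each gene was centred on its mean over the 7 samples, the median member lay at -0.14, -0.22, -0.04 and -0.07 in STL 5 to 8, against -0.05 in the averaged control 1 and 2, 0.42 in control 3 and 0.01 in control 4. The median standard deviation of a member within a group was 0.24 in STL livers and 0.38 in control livers, while over all genes it was 0.22 in either group.

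**Figure D1:**
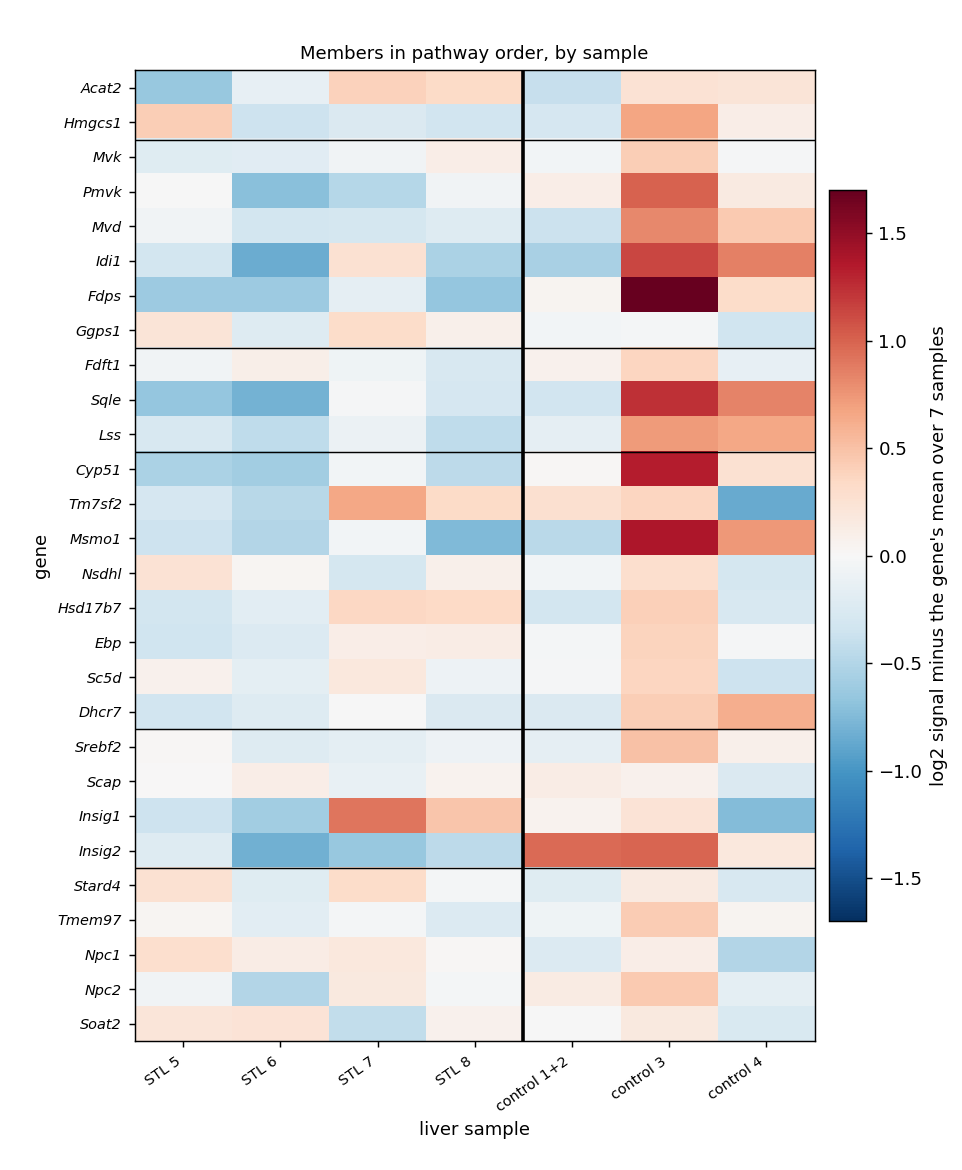
Normalised log2 signal of the 28 members minus each gene's mean over the 7 samples (colour, log2 units), with genes in pathway order from top to bottom, lines between the pathway steps, and the 4 STL livers left of the 3 control samples. The column of control 3 is the reddest, with the highest value of 19 members, and the averaged control 1 and 2 lies inside the STL range for 21 of 28 and outside it for Pmvk, Mvd, Fdps, Cyp51, Scap, Insig2 and Npc1.

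Without control 3, 17 of 28 members were lower in STL, against 42.3% of all genes, and the median difference of the members was -0.05, against 0.06 over all genes. At an unadjusted p under 0.05, 4 were then lower, Fdps, Lss, Cyp51 and Insig2, against 5.03% of genes. The groups did not overlap for 4 members, Pmvk, Fdps, Cyp51 and Insig2, each with every STL liver below every control sample, against 5.63% of all genes. Without control 3 every STL liver lay below the remaining control samples for the same 4, against 7.81% of genes. With all samples, no member had every STL liver above every control sample, a pattern of 11.3% of genes. Without control 3 this held for 1 member, Npc1, against 14.5% of genes.

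The most separated member was Insig2, which encodes an endoplasmic reticulum protein that retains SCAP when sterols are plentiful. Its signal was 4.09, 3.49, 3.67 and 3.87 in STL 5 to 8, against 5.28 in the averaged control 1 and 2, 5.30 in control 3 and 4.49 in control 4. The groups did not overlap, and here the averaged control 1 and 2 stood with control 3 rather than with the STL livers. The difference was -1.25 (SE 0.22), an STL level 0.421 times that of control, with a limma adjusted p of 0.159 over all genes. It ranked 51 by p among the 21675 genes tested and 14 among those lower in STL. Leaving out any 1 sample gave differences between -1.51 and -1.11. The probe is shown because the difference with the smallest p rests on it:
Insig2 probe: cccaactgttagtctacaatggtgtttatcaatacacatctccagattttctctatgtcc
In the files it lies on the minus strand of rn4 at chr13:33333061-33333298, and its 60 bases are spread over 238 bases of the genome, so they are split there by a gap. A second probe, named in the files only by a transcript that RefSeq assigns to Insig2, averaged 1.78 ± 0.38 in STL livers and 2.86 ± 0.57 in control livers (SD, n = 4 and 3). Every STL liver was again below every control sample, with a difference of -1.08.

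Insig1, the SREBP2-induced relative of Insig2, did not follow it. It averaged 4.53 ± 0.70 in STL livers, with 3.83 the lowest and 5.33 the highest, and 4.27 ± 0.52 in control livers. The difference was 0.26, with the groups overlapping (limma adjusted p = 0.722), and it was -0.035 without control 4. Srebf2 itself measured 2.37, 2.13, 2.19 and 2.27 in STL 5 to 8, against 2.20, 2.84 and 2.43 in the averaged control 1 and 2, control 3 and control 4. Control 3 and, narrowly, control 4 lay above the STL range, and the averaged pair lay within it. The difference was -0.25 (95% interval -0.60 to 0.10), and -0.08 without control 3. Scap, the carrier of SREBP2, averaged 3.23 ± 0.10 in STL livers and 3.20 ± 0.20 in control livers, a difference of 0.03 that had the opposite sign with normexp background correction, quantile normalization and median scaling.

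**Figure D2:**
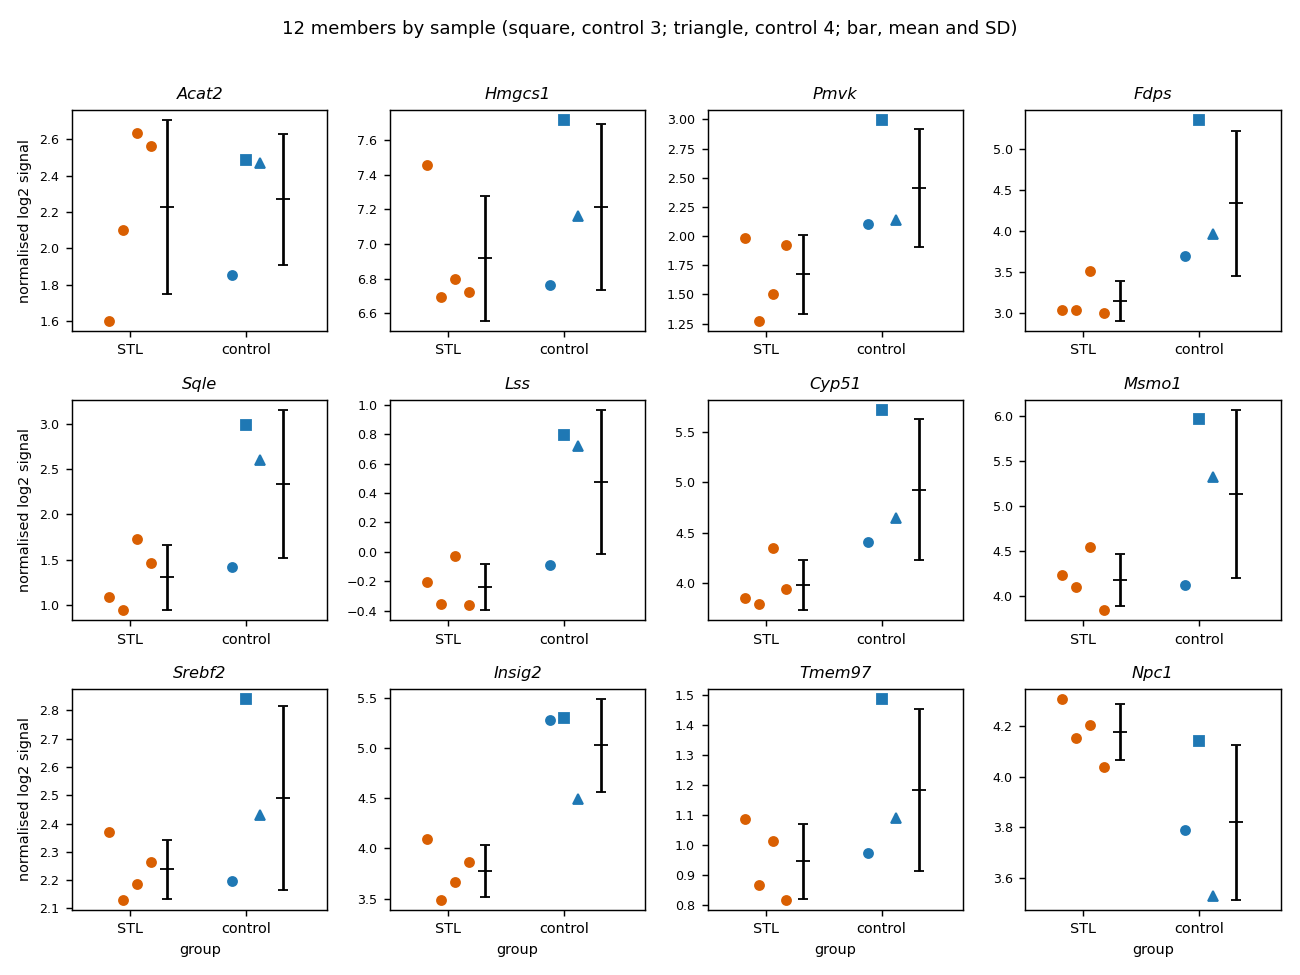
Normalised log2 signal (y axis, log2 units, scaled for each gene) of 12 members in the 4 STL livers (left, orange) and the 3 control samples (right, blue, with a square for control 3 and a triangle for control 4); bars are the group mean and SD. The averaged control 1 and 2, the blue circle, sits among or just above the STL points in the panels other than Insig2, where it stands level with control 3, and Npc1, where it lies below them.

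At the head of the pathway no difference stood out from the spread. Acat2, the cytosolic thiolase that joins acetyl-CoA units, measured 1.60, 2.10, 2.64 and 2.56 in STL 5 to 8, against 1.86, 2.49 and 2.47 in the averaged control 1 and 2, control 3 and control 4. The STL range enclosed all control samples, the difference was -0.04 (95% interval -0.65 to 0.56), and its 4 probes above background differed in sign, from -0.34 to 0.20. Hmgcs1, which makes HMG-CoA in the cytosol, measured 7.46, 6.70, 6.80 and 6.72 in STL 5 to 8, against 6.76, 7.72 and 7.16 in the averaged control 1 and 2, control 3 and control 4. STL 5 stood away from the other STL livers and reached into the upper part of the control range. The difference was -0.30 (SE 0.26, limma adjusted p = 0.545), -0.52 without the averaged control 1 and 2, and -0.04 without control 3.

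From mevalonate to the isoprenoids 5 of 6 members were lower in STL, with a median difference of -0.63. Pmvk, the second kinase of the pathway, measured 1.98, 1.27, 1.50 and 1.92 in STL 5 to 8, against 2.10, 2.99 and 2.14 in the averaged control 1 and 2, control 3 and control 4. The groups were separate by a narrow gap, with control 3 well above the rest. Its difference was -0.74 (SE 0.26, limma adjusted p = 0.202), and -0.45 without control 3.

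Fdps, which condenses isoprene units to farnesyl diphosphate and so feeds squalene and protein prenylation, measured 3.04, 3.04, 3.52 and 3.01 in STL 5 to 8. The control samples were at 3.70 in the averaged control 1 and 2, 5.36 in control 3 and 3.97 in control 4. All STL livers lay below all control samples, and STL 7 stood above the other 3 STL livers, which were close together. The difference was -1.19 (SE 0.35, limma adjusted p = 0.179), an STL level 0.438 times that of control, and -0.69 without control 3. Fdps was read by 10 spots of 1 probe per array, whose log2 values had a standard deviation of 0.04 to 0.07 on an array. That probe is shown because the gene has no other on the array:
Fdps probe: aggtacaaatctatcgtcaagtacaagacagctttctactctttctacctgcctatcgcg
It lies on the minus strand of rn4 at chr2:181170192-181170336, and its 60 bases are likewise split in the genome, over 145 bases.

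The other members of this step were less separate. Mvd, the decarboxylase that makes isopentenyl diphosphate, averaged 0.39 ± 0.11 in STL livers and 0.92 ± 0.61 in control livers. Idi1, which isomerises that product, averaged 2.46 ± 0.47 in STL livers and 3.30 ± 0.90 in control livers. For both, control 3 and control 4 were above every STL liver, and the averaged control 1 and 2 was at 0.25 for Mvd and 2.27 for Idi1, at or below the STL means. The differences were -0.52 and -0.84, each with a limma adjusted p of 0.289. A second, dimmer Idi1 probe gave -1.06 (limma unadjusted p = 0.012). On it the averaged control 1 and 2 was at 2.08, inside the STL range of 1.60 to 2.15. Mvk, the first kinase, averaged -0.53 ± 0.15 in STL livers and -0.32 ± 0.26 in control livers. Ggps1, which extends farnesyl to geranylgeranyl diphosphate for protein prenylation, was the 1 member of the step with a positive difference, at 0.24, and its 3 probes ranged from 0.24 to 0.26.

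Squalene synthesis and ring closure had the lowest median difference of the 6 steps, -0.72 over 3 members. Sqle, the epoxidase that spends oxygen on squalene and a rate-limiting enzyme, measured 1.08, 0.94, 1.73 and 1.47 in STL 5 to 8, against 1.42, 2.99 and 2.60 in the averaged control 1 and 2, control 3 and control 4. The averaged control pair fell among the STL livers, and control 3 and control 4 lay above all of them. The difference was -1.03 (SE 0.35, limma adjusted p = 0.200), and a second probe gave -1.01. These Sqle probes share a run of letters, so the second partly repeats the measurement. Lss, which folds the epoxide into lanosterol, measured -0.21, -0.36, -0.03 and -0.36 in STL 5 to 8, against -0.09, 0.80 and 0.72 in the averaged control 1 and 2, control 3 and control 4. The pattern was that of Sqle, with the averaged pair inside the STL range. Its difference was -0.72 (SE 0.22, limma adjusted p = 0.182), and the second Lss probe, at -0.72, has the same letters and so is a repeat of the measurement. Fdft1, squalene synthase, averaged 4.06 ± 0.15 in STL livers and 4.24 ± 0.25 in control livers, a difference of -0.18.

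Between lanosterol and cholesterol the members parted, with 4 of 8 lower in STL and a median difference of -0.09. Cyp51, the cytochrome P450 that takes the first methyl group from lanosterol, measured 3.85, 3.79, 4.35 and 3.94 in STL 5 to 8, against 4.41, 5.72 and 4.65 in the averaged control 1 and 2, control 3 and control 4. The highest STL liver lay just under the lowest control sample, and control 3 was far above. The difference was -0.94 (SE 0.29, limma adjusted p = 0.183), with -0.92 from a second probe, and -0.54 without control 3. Msmo1, the monooxygenase that starts removal of the next methyl groups, measured 4.24, 4.09, 4.54 and 3.84 in STL 5 to 8, against 4.13, 5.97 and 5.32 in the averaged control 1 and 2, control 3 and control 4. Here the averaged pair was again within the STL range. The difference was -0.96 (SE 0.38, limma adjusted p = 0.234), -1.47 without the averaged control 1 and 2, and -0.55 without control 3.

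Dhcr7, the reductase of a final step, averaged 2.67 ± 0.14 in STL livers and 3.13 ± 0.45 in control livers, a difference of -0.46 (limma adjusted p = 0.252) that was -0.72 without the averaged control 1 and 2, -0.39 without control 3 and -0.29 without control 4. Ebp, the isomerase that shifts a ring double bond, averaged 5.86 ± 0.24 in STL livers and 6.04 ± 0.23 in control livers. The other 4 enzymes of the step had differences near 0. Tm7sf2, a sterol reductase that acts after Cyp51, was at 0.13, and Hsd17b7, a keto-reductase of the demethylation steps, was at 0.11. Nsdhl, the dehydrogenase that decarboxylates the sterol, was at 0.03, and Sc5d, a desaturase, was at 0.00. The signs of Nsdhl and Sc5d turned with normexp background correction, quantile normalization and median scaling, and their 2 probes each disagreed in sign.

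**Figure D3:**
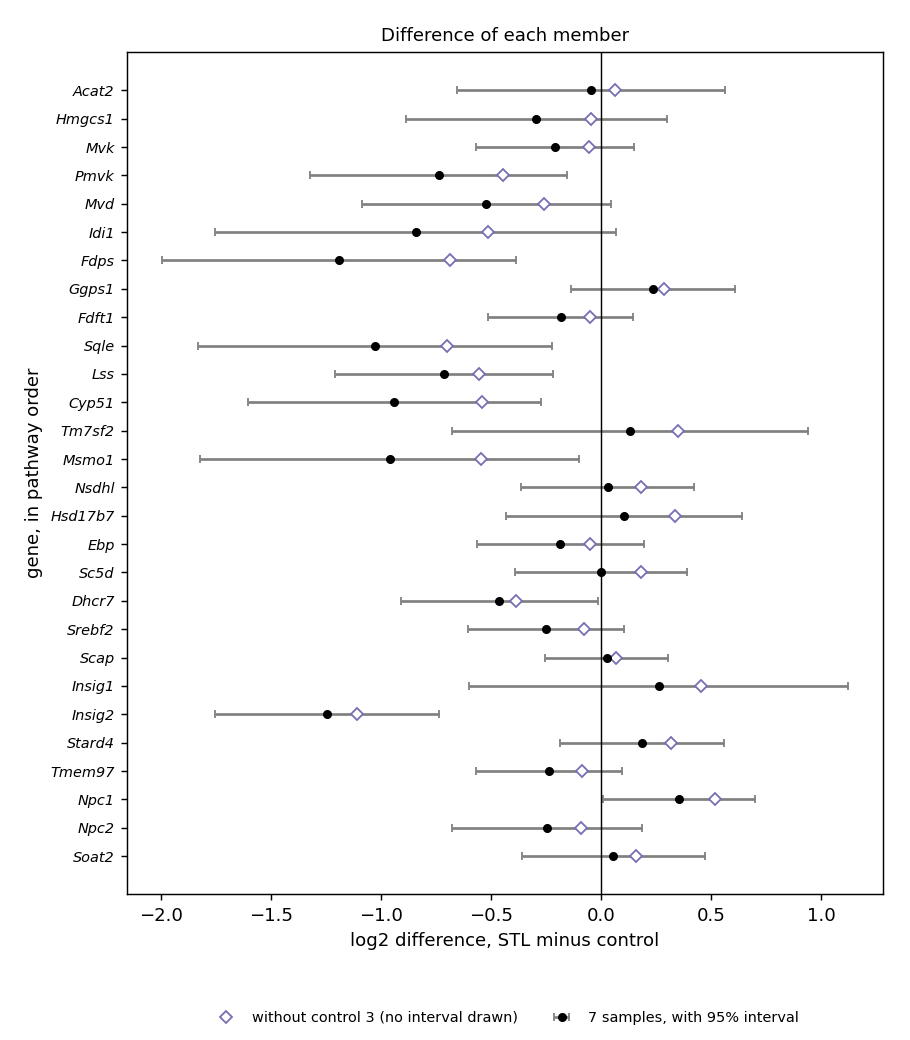
Log2 difference, STL minus control, of each member in pathway order (black points, 7 samples, bars the 95% interval of limma) and the difference without control 3 (open diamonds). Each of the 18 negative differences is nearer to 0 without control 3, or past it for Acat2, and that of Insig2 is then -1.11.

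Among transport and storage genes 2 of 5 were lower in STL, and the median difference was 0.06. Npc1, which exports cholesterol from lysosomes, measured 4.31, 4.15, 4.21 and 4.04 in STL 5 to 8, against 3.79, 4.14 and 3.53 in the averaged control 1 and 2, control 3 and control 4. The STL livers were close together and only control 3 reached their range. The difference was 0.36 (SE 0.15, limma adjusted p = 0.252). It was 0.52 without control 3, 0.21 without control 4 and 0.11 when limma estimated a weight for each sample. Tmem97, a partner of NPC1 that is known as a sterol-regulated gene, measured 1.09, 0.87, 1.01 and 0.82 in STL 5 to 8, against 0.97, 1.48 and 1.09 in the averaged control 1 and 2, control 3 and control 4. All but control 3 lay in or at the edge of the STL range, and the difference was -0.24 (95% interval -0.57 to 0.10).

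The soluble lysosomal partner Npc2 averaged 1.89 ± 0.28 in STL livers and 2.14 ± 0.31 in control livers. Stard4, a carrier that moves sterols between membranes, averaged 2.88 ± 0.24 in STL livers and 2.70 ± 0.23 in control livers. Soat2, which esterifies cholesterol in hepatocytes, averaged 0.76 ± 0.30 in STL livers and 0.71 ± 0.21 in control livers. Their differences were -0.25, 0.19 and 0.06, and the groups overlapped for each.

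Weighted and reduced fits gave other counts. When limma estimated a weight for each sample, STL 8 received 2.12, control 3 received 3.19 and every other sample under 1, and 7 members passed the threshold, Pmvk, Fdps, Sqle, Lss, Cyp51, Msmo1 and Insig2, against 7.33% of all genes. That fit gives the liver with the highest member values the largest weight, and the median difference of the members was -0.42 in it. Without the averaged control 1 and 2, whose member median lay within the STL range, 3 members passed, Sqle, Lss and Msmo1, against 0.927% of all genes.

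Markers of dividing cells also split the control livers. The summed signal of 6 markers of dividing cells, in multiples of the 75th percentile, was 1.65 to 2.52 in STL livers, against 2.01 in the averaged control 1 and 2, 9.60 in control 3 and 9.89 in control 4. All 6 markers were lower in STL, with a median difference of -1.42, and 0 passed the threshold (limma, Benjamini-Hochberg), while 6 had an unadjusted p under 0.05. The 5 markers of preneoplastic hepatocytes summed to 62.4 to 141 in STL livers and 96.6 to 306 in control livers, with 4 of 5 lower. Aldh1a1, the brightest of the 5 in every STL liver, weighs most in the STL sums and was at 0.17. Gstp1 was brighter than Aldh1a1 in control 3, at 6.05 against 5.87, and in control 4, at 7.09 against 6.81. The 4 markers other than Aldh1a1 differed by -3.77 to -1.75, and STL 6 was the highest STL liver for each. For Gstp1 and Ggt1 STL 6, at 5.29 and 1.35, lay above the averaged control 1 and 2, at 4.96 and 0.71. Those of stellate cells and matrix summed to 27.1 to 40.3 in STL livers and 43.6 to 89.9 in control livers, with 5 of 6 lower. Collagens weigh most in these stellate sums, and the 3 collagen markers differed by -1.39 to -0.75. Des was at -0.31, Lrat at -0.0008 and Acta2 at 0.05. The hepatocyte markers summed to 2182 to 3156 in STL livers and 1648 to 2251 in control livers, with 5 of 6 higher, and all 6 were well above background on every array. Bile duct markers were lower for 3 of 4, at 1.97 to 4.04 in STL livers and 3.28 to 7.93 in control livers. Kupffer cell markers, 57.2 to 85.2 in STL livers and 59.1 to 82.7 in control livers, and lymphocyte markers, 0.840 to 1.01 in STL livers and 0.773 to 0.907 in control livers, overlapped between the groups, and the lymphocyte markers Cd3e and Ms4a1 were too dim to be tested. No marker of these lists passed the threshold in limma, and an unadjusted p under 0.05 was found for 4 preneoplastic, 3 stellate, 2 bile duct and 1 hepatocyte marker. The hepatocyte marker was higher in STL, as were 11.6% of all genes at that level. The others, like the 6 of dividing cells, were lower, as were 7.41% of all genes. Of the tested markers, Krt7 of bile duct was well above background on 6 of 8 arrays and every other on all 8. The part of these cells in the members' differences was not tested.

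**Figure D4:**
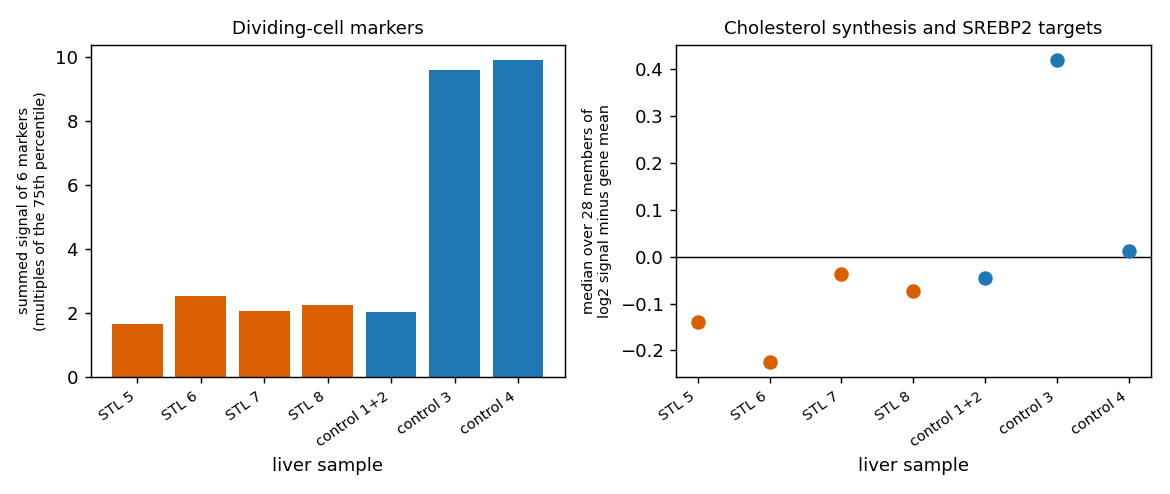
Left, summed signal of 6 markers of dividing cells by liver sample (bars, multiples of the array's 75th percentile); right, the median over 28 members of log2 signal minus the gene's mean over 7 samples, with the 4 STL livers (orange) left of the 3 control samples (blue). The marker sum is high in control 3 and control 4, at 9.60 and 9.89, and the members' median is high only in control 3, at 0.42. In control 4 single members ranged from -0.86 for Tm7sf2 to 0.85 for Idi1, which the median does not show.

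Other genes around the pathway were read from 4 further lists. Over all genes tested, 41.9% were lower in STL and the median difference was 0.065. Of 10 further enzymes and redox partners of sterol synthesis, 7 were lower and 3 higher in STL, with a median of -0.14, or 0.04 without control 3. Cyb5a, which passes electrons to sterol enzymes, and Por, the reductase of Cyp51, were both higher, at 0.49 each, and Erg28, a scaffold of the demethylation enzymes, was at -0.43. Of 11 genes that use isoprenoids outside sterols, 3 were lower and 8 higher, with a median of 0.12. The farnesyltransferase subunits Fntb and Fnta were at -0.30 and -0.27, and Icmt, which methylates prenylated proteins, was at 0.21.

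Of 12 genes of SREBP cleavage and sterol-driven degradation, 4 were lower and 8 higher, with a median of 0.13. Over all genes, 41.9% were lower and the median was 0.065. Ufd1, Erlin1 and Aup1, which take part in removing proteins from the endoplasmic reticulum, were at 0.58, 0.49 and 0.42. Every STL liver was above every control sample for these 3, against the 11.3% of all genes given above. Of 14 genes of sterol esters and sterol transfer, 6 were lower and 8 higher, with a median of 0.09, both near the values over all genes. Lcat, which esterifies plasma cholesterol, was at 0.54, Abca1, which loads HDL, was at 0.26, and Stard3, an endosomal sterol carrier, was at 0.16. In these 4 lists 0 genes passed the threshold (limma, Benjamini-Hochberg), and 6 of the 47 genes tested had an unadjusted p under 0.05 and were higher in STL, or 12.8%, near the 11.6% of all genes.

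The promoters of the members were searched for the motifs that SREBP2 and its partners are known to use. RefSeq windows of the GRCr8 assembly, from 250 bases before to 50 after the start, were found for 23 of 28 members. On both strands the core of the sterol regulatory element, TCACNCCA, occurred in 2 of 23, Msmo1 and Srebf2, or 8.70%, against 3.91% of 27457 promoters. The NF-Y box CCAAT occurred in 18, or 78.3%, against 37.7%, and the GC box GGGCGG in 19, or 82.6%, against 34.9%. The 27457 promoters were not matched to the members in base composition or in liver signal, and whether the shares differ for that reason was not tested. No match overlapped a match of another of these motifs in the members. The windows of Msmo1 and Srebf2 are shown with the sterol element core in capitals, and that of Fdps, which has no core match, with its 2 NF-Y boxes in capitals.
Msmo1 promoter: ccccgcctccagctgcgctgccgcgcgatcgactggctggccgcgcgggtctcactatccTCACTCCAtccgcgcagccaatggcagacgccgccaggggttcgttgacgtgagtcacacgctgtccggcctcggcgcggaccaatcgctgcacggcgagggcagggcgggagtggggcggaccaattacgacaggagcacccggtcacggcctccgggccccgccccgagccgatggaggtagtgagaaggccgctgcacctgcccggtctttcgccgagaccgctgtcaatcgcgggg
Srebf2 promoter: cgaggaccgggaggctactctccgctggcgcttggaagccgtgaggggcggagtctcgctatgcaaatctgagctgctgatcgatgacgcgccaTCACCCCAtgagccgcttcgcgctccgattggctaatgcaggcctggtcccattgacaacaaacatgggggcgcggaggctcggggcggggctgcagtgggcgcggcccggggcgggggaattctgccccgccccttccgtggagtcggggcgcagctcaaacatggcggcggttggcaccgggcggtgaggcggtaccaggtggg
Fdps promoter: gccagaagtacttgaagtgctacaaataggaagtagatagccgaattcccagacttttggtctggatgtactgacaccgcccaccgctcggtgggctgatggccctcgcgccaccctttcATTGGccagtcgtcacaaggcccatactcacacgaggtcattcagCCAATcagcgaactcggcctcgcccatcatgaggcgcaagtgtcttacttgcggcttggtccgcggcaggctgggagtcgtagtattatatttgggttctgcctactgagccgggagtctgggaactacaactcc
They lie in GRCr8 at chr16:29746863-29747162 (plus strand), chr7:115543057-115543356 (plus strand) and chr2:176804767-176805066 (minus strand), and are printed 5′ to 3′ along each gene. The core starts at position -190 in Msmo1 and -156 in Srebf2, counted from the transcription start. Msmo1, with its match, differed by -0.96 and Srebf2, with its match, by -0.25, while Fdps, without one, differed by -1.19. For the sterol element only TCACNCCA was searched, so forms of it with other letters were not counted in any window, that of Fdps included. A match is a string of letters and was not measured as a bound site.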

How the data were processed

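Liver RNA labelled with Cy3 was hybridised to 8 one-colour Agilent arrays on 1 slide. Intensity per spot, both raw and processed, was read from the scanner files the authors deposited; these came from Agilent Feature Extraction, version 11.5.1.1 per the file headers and 10.7 per the submitters' processing notes. The authors' value table holds linear intensity scaled to a common 75th percentile, with no centring. Of its 8 columns, 6 held an array of the same group other than the one named, and 0 held one of the other group, so numbers within a group are unsettled.

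Flagged spots were left out, spots of a probe were averaged, and log2 values were set against the 75th percentile of each array over 45598 probes. A gene was tested when at least 4 of 8 arrays measured it well above background (21675 genes), using limma 3.58.1 under R 4.3.3 (lmFit, eBayes with an intensity trend, two-sided, Benjamini-Hochberg over all genes, threshold 0.05). The fit was tested on simulated data. Tables and plots used Python 3.11.15, pandas 2.3.3 and matplotlib 3.10.9. The averaging of control 1 and control 2 followed their spot noise.

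The members and lists were chosen with earlier results of these data known. Every sample is given for the 12 members with the smallest unadjusted p within the pathway steps, and at most 3 genes are named of each list of other genes. Alternatives covered the background correction, scaling, filter, probe rule, array weights, slide column, the authors' table and each sample left out. The number of arrays limits the precision.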

Additional observations from a re-analysis of the deposited data

Results flagged for a closer look

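Within the 4 STL livers, STL 5 stood apart for Hmgcs1 at 7.46 normalised log2 units, with a gap to its nearest neighbour of 0.864 of the group's range. STL 7 stood apart in the same way for Fdps at 3.52, with a gap of 0.933 of the range. Such gaps arise by chance in about 1 of 20 groups of this size, and 28 members were looked at. The control group, with 3 samples, was too small for this look.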

How the results depend on the processing

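Of 28 members, 19 kept the sign of their difference under all 17 alternatives and 9 changed it under some. The number of all genes past the threshold was 1, and was 21 with control 1 and control 2 as separate samples, 1588 with array weights, and 1 to 201 when 1 sample was left out, with 3 without control 3, 46 without STL 6 and 201 without the averaged control 1 and 2. Members past the threshold numbered 0, but 7 with array weights and 0 to 3 when 1 sample was left out, with 3 without the averaged control 1 and 2. The median difference of the members was -0.42 with array weights, against -0.22, and kept its sign under every alternative. Members lower at an unadjusted p under 0.05, a count added after the data were seen, numbered 8, but 5 with control 1 and control 2 as separate samples, 16 with array weights and 4 to 11 when 1 sample was left out, with 4 without control 3 and 5 without control 4. Of all genes tested, 7.41% were lower at that level with all samples and 5.03% without control 3. The share under the other settings was not counted, so those member counts have no background beside them. Members whose groups do not overlap numbered 4, but 3 with median scaling, 3 with the mean of all probes, and 4 to 12 when 1 sample was left out, with 12 without the averaged control 1 and 2. Of all genes, 5.63% had every STL liver below every control sample and 11.3% had every one above. For 12.6% of all genes every STL liver lay below both control 3 and control 4.

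These members had small differences that turned. Acat2 was at 0.094 with the mean of all probes and 0.059 with control 1 and control 2 as separate samples or the slide column as a block. With array weights Hsd17b7 was at -0.11, Nsdhl at -0.13, Sc5d at -0.27, Scap at -0.017, Soat2 at -0.039, Stard4 at -0.024 and Tm7sf2 at -0.13. With normexp background correction Nsdhl was at -0.019, Sc5d at -0.055 and Scap at -0.030. With quantile normalization they were at -0.092, -0.066 and -0.057, and with median scaling at -0.015, -0.045 and -0.019. With the mean of all probes Nsdhl was at -0.13 and Sc5d at -0.025, and Scap was at -0.0087 with control 1 and control 2 as separate samples or the slide column as a block. When 1 sample was left out, differences ranged from -0.25 to 0.16 for Acat2, -0.021 to 0.34 for Hsd17b7, -0.035 to 0.49 for Insig1, -0.11 to 0.18 for Nsdhl, -0.17 to 0.18 for Sc5d, -0.087 to 0.095 for Scap, -0.055 to 0.20 for Soat2 and -0.26 to 0.35 for Tm7sf2. The cause of these turns was not tested. The groups share no replicate numbers. Each column of the slide held 1 STL and 1 control array, and with the slide column as a block 0 members and 1 gene of all passed the threshold.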
